A study of Mus musculus with 12 samples.

Results

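The genes described here encode the cleavage and polyadenylation machinery, the proteins that cut the 3′ end of a nascent mRNA and add its poly(A) tail, together with poly(A) binding proteins and a few partners. They were named by symbol in a list of 32, of which 31 matched one of the 22609 genes in the count tables. The spelling Symplk matched no gene and was dropped. The scaffold protein symplekin is in the tables as Sympk, which was not on the list, and its values are given only beside the subunits it holds together. The members were 6 subunits of CPSF (cleavage and polyadenylation specificity factor), 4 of CstF (cleavage stimulation factor), 3 of cleavage factor I (CFI), 2 of cleavage factor II (CFII), 4 poly(A) polymerases, 4 poly(A) binding proteins and 8 associated factors.

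RNAseq of polyA RNA was carried out on adherent neural stem (ANS) cells, a line of adherent progenitors derived from mouse embryonic brain at E14.5, grown as a single layer in culture and able to give rise to GABAergic inhibitory neurons. T0 (3 libraries) was proliferating ANS cells in growth medium, Euromed-N with 1% N2 and 20 ng/ml each of FGF2 and EGF. T1 (3 libraries) was taken 2 days after a change to medium D1, Euromed-N with FGF2 at 10 ng/ml, EGF at 2 ng/ml, 0.5% N2 and 1% B27. T2 (4 libraries) was taken 2 days, and T3 (2 libraries) 10 days, after a later change to medium B, a mix of DMEM/F12 and Neurobasal with 0.5% N2, 1% B27, 10 ng/ml FGF2 and 20 ng/ml BDNF. Medium, growth factors, replating and days in culture change together between time points and cannot be told apart. No gene was deleted or silenced in these samples. The series text calls the replicates biological without saying whether they came from separate embryos or derivations, so p-values measure the spread between these cultures.

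In 3′ end formation CPSF reads the AAUAAA signal upstream of the cut and holds the endonuclease, CstF binds a GU-rich element downstream of it, CFI binds UGUA motifs further upstream, and CFII links the complex to the elongating polymerase. Many genes have several poly(A) sites, and the choice among them sets the length of the 3′UTR, which tends to be longer in neurons than in dividing cells. Levels of CFI and CstF subunits are among the quantities known to shift that choice in other cells, so the question put to these data was whether the mRNAs of the machinery changed as ANS cells left proliferation.

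The mRNAs of these factors are themselves cleaved and polyadenylated. The last 30 bases of their annotated transcripts are shown for the most changed poly(A) binding proteins, for the related pairs Cstf2 and Cstf2t and Papola and Papolg, and for the CFI subunit Nudt21, because this is where the signal read by CPSF lies. They were taken from the NCBIM37 genome on the transcript's strand, at the 3′ end of the longest coding transcript in GENCODE vM1, and capitals mark AATAAA or, where it was missing, ATTAAA.
Pabpc1 (chr15:36525416-36525445, minus strand): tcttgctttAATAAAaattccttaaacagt
Pabpc4 (chr4:122976139-122976168, plus strand): taAATAAAtttactttcccttttggttttt
Cstf2 (chrX:130621329-130621358, plus strand): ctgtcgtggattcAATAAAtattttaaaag
Cstf2t (chr19:31161051-31161080, plus strand): atgaaaattaAATAAAaaggttgtataatt
Nudt21 (chr8:96543303-96543332, minus strand): gtttctcATTAAActctgaaaagtcttaga
Papola (chr12:107076988-107077017, plus strand): taacctggagatcagactgttgctttcgca
Papolg (chr11:23762646-23762675, minus strand): tcttttcaaagagaaactttaaaaccttta
AATAAA was present in 21 of the 31 members' ends (67.7%) and in 47.2% of the ends of 22611 coding genes, searched on the transcript's strand only. ATTAAA without AATAAA was present in 2 members, Nudt21 and Cpsf4 (6.45%), and in 10.9% of coding genes. Papola and Papolg held neither in this window, which says only that these letters are not in the last 30 bases of the annotated transcript.

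The libraries held between 8910724 and 16631614 counts on genes, and 30 of the 31 members had at least 50 counts in every library. The exception was Papolb, the testis poly(A) polymerase, with 15 to 44 counts. T0 replicate 3 stood apart from the other T0 libraries: a chi-square statistic per gene, near 1 for sampling noise alone, was 3.28 between replicates 1 and 2 and 101 and 105 against replicate 3. It had the highest T0 level of 23 of the 31 members, with a median ratio of 1.25 to the mean of replicates 1 and 2 and a range from 0.758 for Papolg to 1.78 for Pabpc4. Counts of called members and the values of several members are therefore also given without it.

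The labelled cell type was checked against marker lists. Summed CPM (counts scaled to a common library size) of 5 neural progenitor markers was 2150 to 4320 at T0 and 2830 to 4200 in the other libraries. The sum of 5 proliferation markers was 1260 to 1950 at T0, then 68.9 to 182 at T1, 101 to 229 at T2, and at T3 392 to 687, and all 5 fell at T1 and at T2 but only 1 passed the test at T3. The sum of 5 neuronal markers was 893 to 965 at T0 and 1690 to 2720 in the other libraries, and the test found 4 of 4 higher at T1, then 5 of 5 at T2, and 3 of 5 at T3. The 5 astrocyte markers summed to 735 to 1740 at T0 and 869 to 1350 elsewhere, with 1 lower at T2, and the 5 oligodendrocyte markers to 982 to 1360 at T0 and 1330 to 1710 elsewhere, with 1 higher at T1 and 2 at T2. The 5 microglial markers had at most 3 counts in every library, as did 2 of 4 endothelial and 2 of 4 fibroblast markers. Proliferation and neuronal markers thus moved with the time points beside every result below, and their part in those results was not tested. In these bulk samples, fewer cells of a type and less RNA per cell cannot be told apart.

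Levels of different genes were compared only in FPKM (fragments per kilobase of transcript, scaled to library size), as deposited. Averaged over the 12 libraries, Pabpc1, the main cytoplasmic poly(A) binding protein, was the highest member with 244 FPKM, above 98.1% of the 13406 genes with a mean of at least 1 FPKM. It was followed by Ppp1ca with 146 FPKM, Pabpn1 with 92.4 FPKM and Papola with 77.6 FPKM. At T0 the Pabpc1 libraries, 339 to 485 FPKM, did not overlap those of Ppp1ca, 156 to 282 FPKM, whereas Papola (83.9 to 150 FPKM) and Pabpn1 (104 to 152 FPKM) overlapped. The lowest members were Papolb with 0.335 FPKM, under the limit of 1 FPKM, and Nudt21 with 4.21 FPKM, above 20.3% of those genes. A second place in the genome matches 97.2% of the Nudt21 transcript at 99.8% identity. How the FPKM treat reads that fit both places is not given, so the rank of Nudt21 is uncertain. Among the core CPSF subunits the T0 mean ran from 18.0 FPKM for Wdr33 and 18.5 FPKM for Cpsf2 to 48.0 FPKM for Fip1l1.

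**Figure D1:**
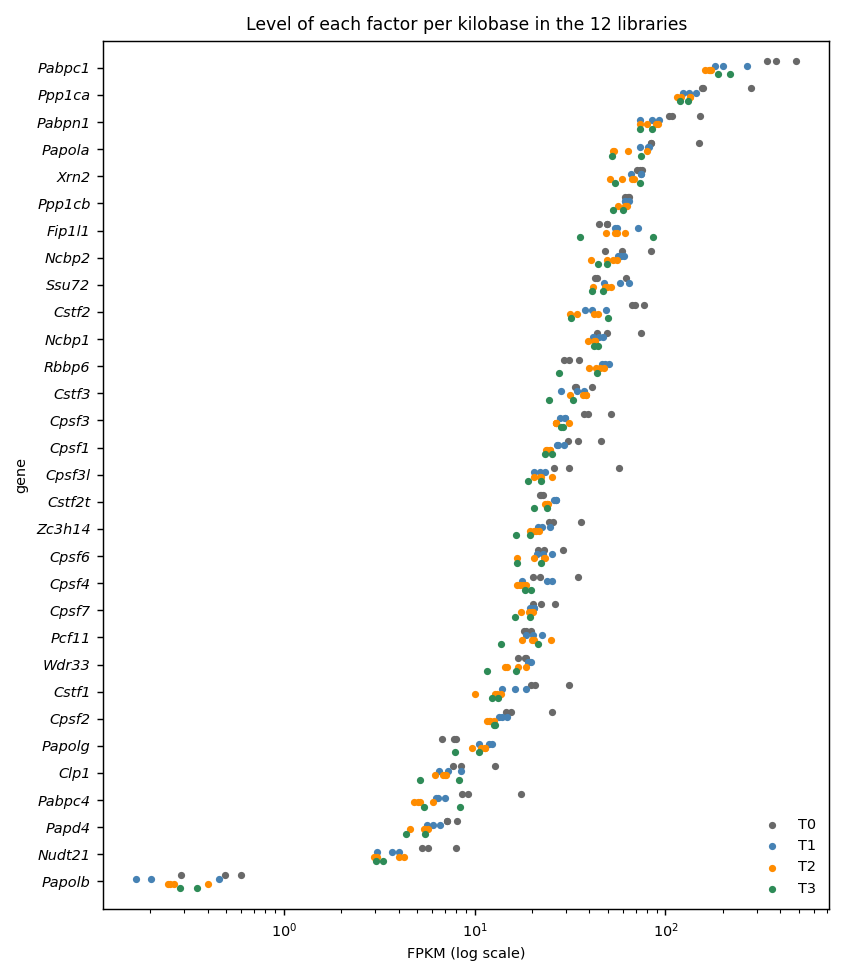
FPKM of each of the 31 factors (log axis), with 1 point per library and the 4 time points in separate colors, genes ordered by their mean. Pabpc1 lies highest and Papolb lowest, and for Pabpc1 and Cstf2 the T0 points sit to the right of all the others.

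At T1 the genes of 3 poly(A) binding proteins, Pabpc1, Pabpc4 and Pabpn1, fell. Outside that group the endonuclease gene Cpsf3, its integrator relative Cpsf3l and the CstF subunit Cstf2 fell, and the poly(A) polymerase gene Papolg was the only member that rose. At T2 the same 7 genes passed the test with 8 more, of which Cpsf1, Cpsf2, Cstf1, Nudt21, Papola, Ppp1ca and Zc3h14 fell and Fip1l1 rose. No member passed the test at T3, between T1 and T2 or between T2 and T3.

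In numbers, 7 of 31 members (22.6%) passed at T1 (quasi-likelihood test of edgeR, p-values adjusted over all genes tested, threshold 0.05), where 31.9% of all 12364 genes tested did. Of these 6 were lower, beside 16.8% of all genes, and 1 was higher, beside 15.1%. At T2, 15 of 31 (48.4%) passed, beside 43.3% of 12607 genes. Of these 13 were lower and 2 higher, whereas the calls over all genes were divided almost evenly, with 21.8% lower and 21.4% higher. The share of members called was thus near or under that of all genes, and the direction was mostly down. For T1, T2 and T3 in turn the members had a median log2 fold change of -0.31, -0.36 and -0.29, beside -0.0082, 0.0023 and -0.015 for all genes tested, and 23 of 31 members had a negative value in each comparison. Without T0 replicate 3 the member medians were -0.15, -0.25 and -0.13. These 3 comparisons share the T0 libraries, so the repeated direction is not independent. The median absolute log2 fold change at T2 was 0.38 for the members and 0.44 for all genes.

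At T3, 0 of 31 members passed, where 4.72% of 12721 genes did. Pabpc1, Papolg and Zc3h14 had an unadjusted edgeR p under 0.05, as did 26.3% of all genes. DESeq2 called 1 member at T3, Pabpc1, beside 15.2% of all genes. A fit of all 12 libraries, which lends T3 the spread of the other groups, called 7 members, beside 29.8% of all genes. Of these Cpsf1, Cpsf3, Nudt21, Pabpc1, Pabpn1 and Zc3h14 were lower and Papolg was higher. With 2 libraries at T3 the intervals were wide, and 22 of 31 lay within 1 log2 unit of 0, so the count of 0 does not show a return to the T0 level.

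Without T0 replicate 3, 15 members passed at T1 (11 lower and 4 higher) and 16 at T2 (13 lower and 3 higher). Calls over all genes rose too. At T1 their share went from 31.9% to slightly above that of the members, and at T2 from 43.3% to 52.1%. The higher counts at T1 and T2 are thus not particular to the members. At T3, 0 members passed without T0 replicate 3, where the share of all genes rose from 4.72% to 18.4%. The 7 members called at T1 were all among those 15, and 14 of the 15 called at T2 were among those 16, the exception being Nudt21. The T1 count rested on every T1 library. It was 0 without T1 replicate 1 or without replicate 2, and 2, Pabpc1 and Papolg, without replicate 3. The share of all genes called also fell each time from 31.9%, but stayed above that of the members. At T2 the count was 7 without T2 replicate 1, 9 without replicate 2 and 8 without replicate 3 or 4. Here too the share of all genes called fell, from 43.3% to as low as 32.6% without T2 replicate 1. It again stayed above that of the members. The T2 calls that were kept whichever T0 or T2 library was left out were the 7 of Cpsf1, Cpsf3, Cstf1, Fip1l1, Pabpc1, Pabpc4 and Papolg. Those of Cpsf2, Cpsf3l, Nudt21, Pabpn1, Papola and Ppp1ca were each lost whichever T2 library was left out. The T2 call of Cstf2 was lost without T0 replicate 1 or 2 and without T2 replicate 1, 3 or 4, and that of Zc3h14 without T2 replicate 1.

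**Figure D2:**
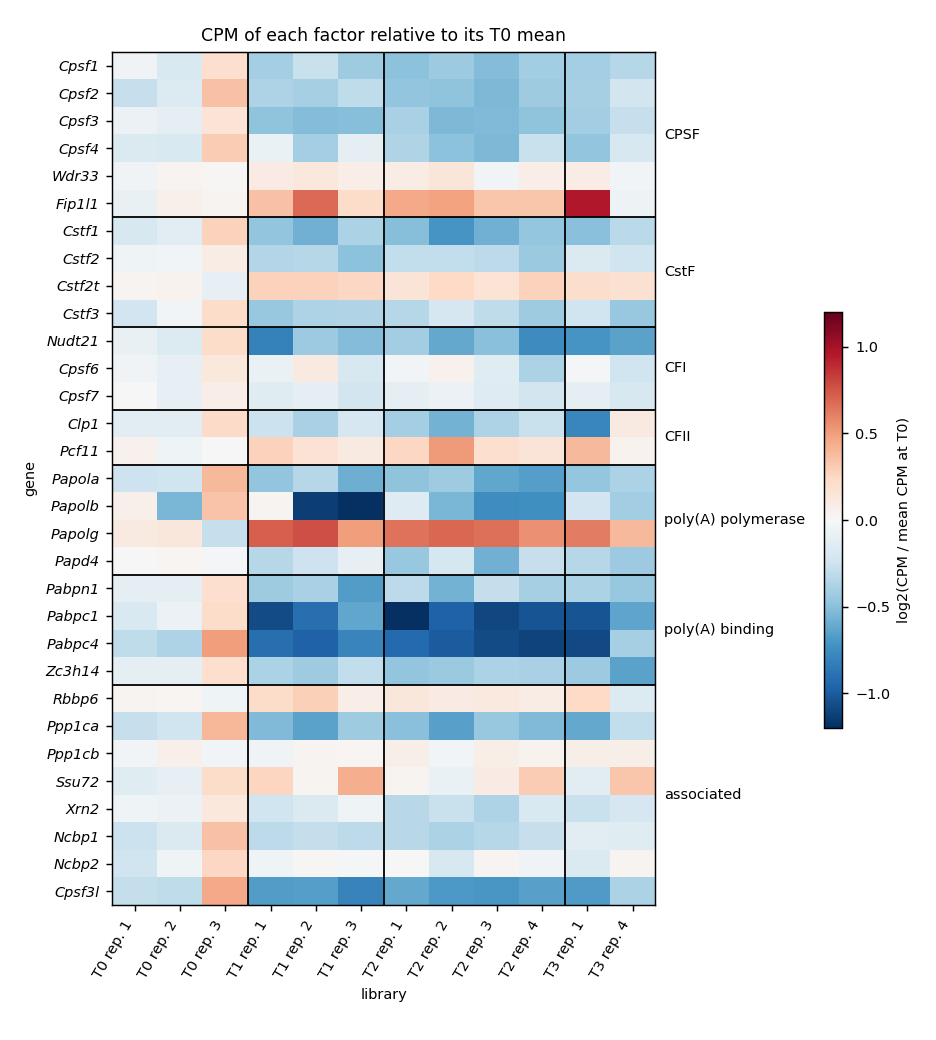
Level of each factor in each library as log2 of its CPM over its T0 mean, with genes grouped by complex, libraries by time point, blue cells below and red cells above the T0 mean. Most rows are blue from T1 on, Papolg, Fip1l1 and Cstf2t are red, and T0 replicate 3 is redder than replicates 1 and 2 in most rows.

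Counted by library without a model, all T1 libraries lay below all T0 libraries for 18 of 31 members and above them for 6, where 28.0% and 28.6% of all genes did so. At T2 18 members lay wholly below T0 and 5 above (27.2% and 27% of all genes), and at T3 17 below and 3 above (25.8% and 24.3%). The 3 members above T0 at T3 were Cstf2t, Papolg and Ppp1cb.

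**Figure D3:**
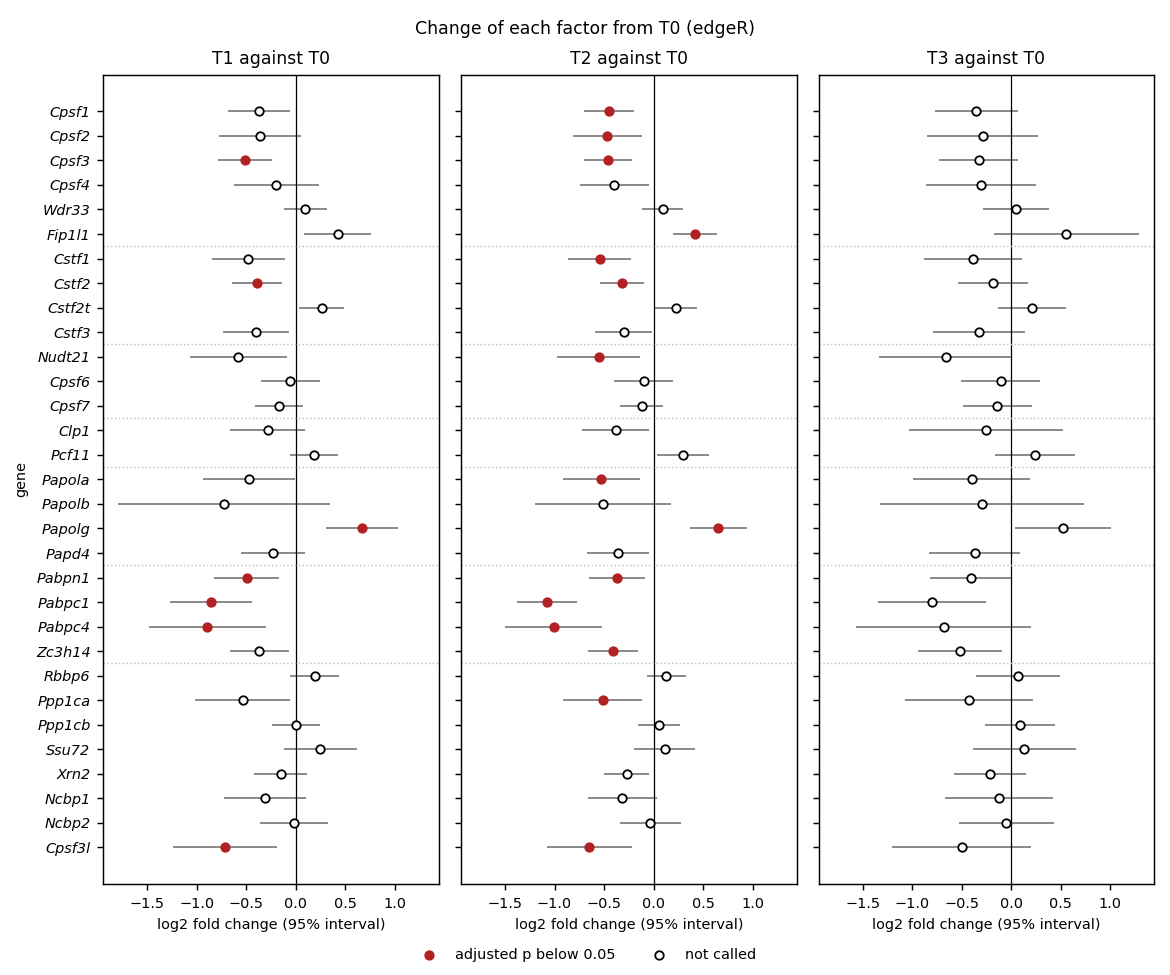
Log2 fold change of each factor at T1, T2 and T3 against T0 with its 95% interval, genes grouped by complex and filled red points for members that passed the edgeR test (7 at T1, 15 at T2, 0 at T3). In each panel 23 of 31 points lie left of 0.

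Among the poly(A) binding proteins, 3 of 4 fell at T1 and 4 of 4 at T2, where 16.8% and 21.8% of all genes fell, and their summed CPM was 0.592, 0.531 and 0.602 times the T0 mean at T1, T2 and T3. Without T0 replicate 3 these ratios were 0.647, 0.581 and 0.657. Pabpc1 supplied 1121 of the mean sum of 1473 CPM at T0, so these ratios mostly follow Pabpc1. Pabpc1, which coats the tails of mRNAs in the cytoplasm and contacts the cap-binding complex during translation, had 988, 1068 and 1306 CPM at T0 and 534, 599 and 730 CPM at T1. It had 466, 571, 525 and 545 CPM at T2 and 546 and 723 CPM at T3. Every differentiating library lay below every T0 library, and the highest of them were T1 replicate 3 and T3 replicate 4. The log2 fold change was -0.86 ± 0.18 (SE) at T1 (edgeR adjusted p = 0.012), -1.07 ± 0.13 (SE) at T2 (edgeR adjusted p = 0.00047) and -0.80 ± 0.22 (SE) at T3 (edgeR adjusted p = 0.092). Without T0 replicate 3 the values were -0.73, -0.95 and -0.68.

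Pabpc4, its inducible relative, had 32.6, 31.1 and 56.7 CPM at T0 and 21.5, 20.5 and 23.2 CPM at T1. It had 21.1, 20.1, 19.1 and 18.6 CPM at T2 and 19.0 and 30.5 CPM at T3. T0 replicate 3 was 1.78 times the mean of the other T0 libraries, and T3 replicate 4 came close to the lower T0 values without overlapping them. On the log2 scale the change from T0 was -0.89 at T1 (edgeR adjusted p = 0.034), -1.01 at T2 (edgeR adjusted p = 0.0064) and -0.68 at T3 (edgeR adjusted p = 0.29). Without T0 replicate 3 these became -0.55, -0.68 and -0.36, with both calls kept. The Pabpc4 transcript has a second place in the genome, on chr14, matching 96.7% of its length at 97.7% identity, and that of Pabpc1 one on chr17 matching 52.9% at 97.7%. Since only uniquely aligned reads were counted, the levels of both genes are uncertain.

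Pabpn1, the nuclear poly(A) binding protein that stimulates poly(A) polymerase, had 188, 187 and 234 CPM at T0, 151, 155 and 128 CPM at T1, 164, 137, 167 and 154 CPM at T2, and 156 and 148 CPM at T3. All differentiating libraries were below T0, and the log2 fold change was -0.50 ± 0.14 (SE) at T1 (edgeR adjusted p = 0.035) and -0.37 ± 0.12 (SE) at T2 (edgeR adjusted p = 0.04). Zc3h14, a nuclear zinc finger protein that binds poly(A), was 100 to 125 CPM at T0 and 78.4 to 83.4 CPM at T2, a log2 fold change of -0.41 (edgeR adjusted p = 0.018). A place elsewhere on chr12 matches 97.9% of the Zc3h14 transcript at 91.4% identity. Exons of another gene cover 21.4% of the exonic bases of Pabpn1 and 28% of those of Zc3h14, and the strand setting of the counting is not given in the sources used here.

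**Figure D4:**
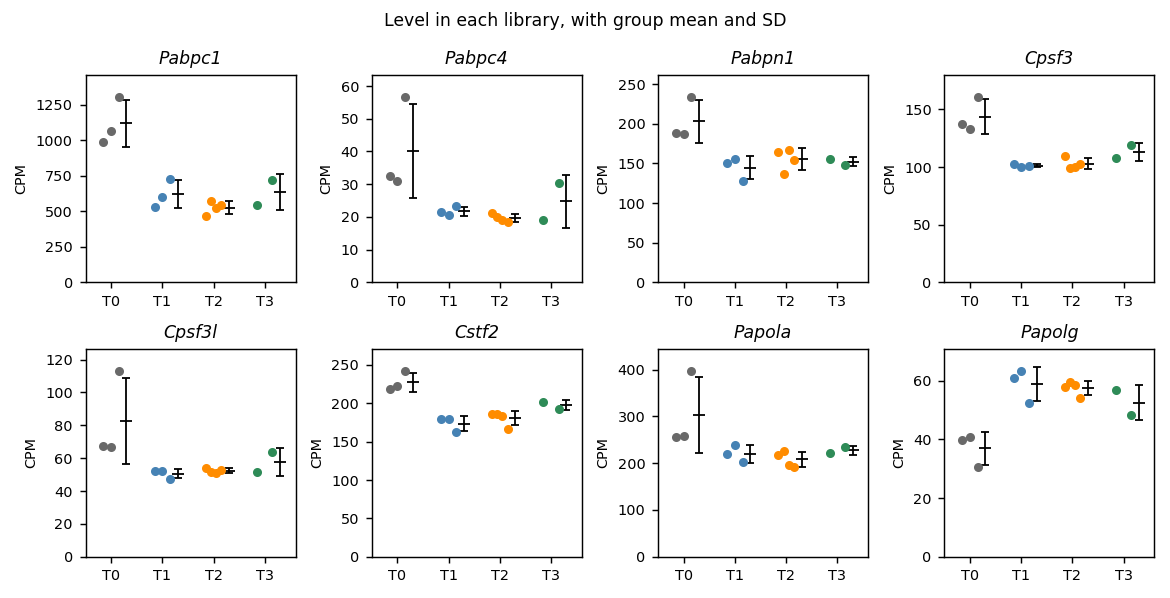
CPM in each library for the members called at both T1 and T2 and for Papola, with the group mean and SD drawn in black beside the points. In the panel of Papolg every differentiating library is above T0, from 48.3 to 63.2 CPM beside 30.5 to 40.7 CPM, and in the other panels every differentiating library is below T0.

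The poly(A) polymerases went in opposite directions. Papolg rose, Papola fell at T2, and Papolb and the cytoplasmic Papd4 did not pass. Papola, the canonical nuclear enzyme that adds the tail, had 256, 258 and 397 CPM at T0 and 219, 240 and 202 CPM at T1. It had 217, 226, 197 and 192 CPM at T2 and 221 and 234 CPM at T3. All these libraries lay below T0, but T0 replicate 3 was far above the rest, and the log2 fold change was -0.47 at T1 (edgeR adjusted p = 0.11) and -0.53 ± 0.17 (SE) at T2 (edgeR adjusted p = 0.035). Without that library the T2 value was -0.29 (edgeR adjusted p = 0.022).

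Papolg, a second nuclear polymerase closely related to Papola, had 39.7, 40.7 and 30.5 CPM at T0, 60.8, 63.2 and 52.4 CPM at T1, 57.9, 59.5, 58.4 and 54.2 CPM at T2, and 56.7 and 48.3 CPM at T3. The ranges did not overlap, and here T0 replicate 3 was the lowest library. Against T0 the log2 change came to 0.67 ± 0.15 (SE) at T1 (edgeR adjusted p = 0.018), 0.66 ± 0.13 (SE) at T2 (edgeR adjusted p = 0.0042) and 0.52 ± 0.20 (SE) at T3 (edgeR adjusted p = 0.17). Papd4, which lengthens tails in the cytoplasm, was 19.3 to 19.7 CPM at T0, 15.3 to 18.2 CPM at T1 and 13.0 to 16.8 CPM at T2 (log2 fold change -0.36, edgeR adjusted p = 0.065), and a place on chr5 matches 96.7% of its transcript at 95.4% identity. Papolb had a log2 fold change of -0.72 at T1, one of the 3 largest, with an interval from -1.79 to 0.35 (edgeR adjusted p = 0.25). Its libraries held 34, 24 and 44 counts at T0, 29, 15 and 15 at T1, 23, 18, 16 and 24 at T2, and 25 and 17 at T3. At these counts a change of the estimated size was not resolved.

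Within CPSF the subunits around the endonuclease fell at T2 and Fip1l1 rose. Cpsf3 itself, the enzyme that cuts the pre-mRNA, had 137, 133 and 161 CPM at T0, 103, 100 and 101 CPM at T1, 110, 99.2, 99.7 and 103 CPM at T2, and 108 and 119 CPM at T3. All differentiating libraries were below T0. The log2 fold change was -0.51 ± 0.11 (SE) at T1 (edgeR adjusted p = 0.016), -0.46 ± 0.11 (SE) at T2 (edgeR adjusted p = 0.0088) and -0.33 at T3 (edgeR adjusted p = 0.26). Cpsf2, its catalytically inactive partner, was 110 to 170 CPM at T0 and 91.5 to 99.2 CPM at T2, a log2 fold change of -0.47 (edgeR adjusted p = 0.037), or -0.25 (edgeR adjusted p = 0.022) without T0 replicate 3. With a T2 library left out the edgeR adjusted p of Cpsf2 was 0.071 to 0.089. Cpsf1, the large scaffold subunit, was 203 to 264 CPM at T0 and 161 to 172 CPM at T2, a log2 fold change of -0.45 (edgeR adjusted p = 0.013).

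Fip1l1, which binds U-rich RNA and poly(A) polymerase, was 119 to 132 CPM at T0, 147 to 203 CPM at T1 (edgeR adjusted p = 0.061) and 159 to 177 CPM at T2, a log2 change of 0.42 ± 0.10 (SE) against T0 (edgeR adjusted p = 0.0095). In the fit of all 12 libraries its edgeR adjusted p was 0.099, and on log2(FPKM + 1) the T2 value was 0.19 (limma adjusted p = 0.23), so the call depends on the fit and the unit. Its T3 libraries differed from each other, with 247 CPM in replicate 1, the highest of all 12, and 121 CPM in replicate 4, inside the T0 range. The log2 fold change at T3 was 0.56, and without replicate 1 it was -0.037. The subunits that read AAUAAA did not pass in any comparison. Cpsf4 was 38.0 to 53.2 CPM at T0 and 29.7 to 40.8 CPM in the differentiating libraries, with a log2 fold change of -0.40 at T2 (edgeR adjusted p = 0.067), and Wdr33 was 112 to 118 CPM and 113 to 128 CPM, with a log2 fold change of 0.09 at T2 and an interval from -0.12 to 0.30. Sympk, outside the list, was 176 to 196 CPM at T0 and 127 to 149 CPM at T2, a log2 fold change of -0.38 (edgeR adjusted p = 0.015). The summed CPM of the 6 CPSF members was 0.903, 0.866 and 0.929 times the T0 mean at T1, T2 and T3, and 0.964, 0.925 and 0.992 times without T0 replicate 3.

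In CstF, Cstf2 fell while its paralog Cstf2t had higher values. Cstf2, which binds the GU-rich downstream element, had 219, 222 and 242 CPM at T0, 179, 180 and 162 CPM at T1, 186, 186, 183 and 167 CPM at T2, and 202 and 193 CPM at T3. No differentiating library reached T0, and the T3 libraries were above those of T2. On the log2 scale the change from T0 was -0.40 ± 0.11 (SE) at T1 (edgeR adjusted p = 0.031), -0.32 ± 0.10 (SE) at T2 (edgeR adjusted p = 0.028) and -0.19 at T3 (edgeR adjusted p = 0.45). On log2(FPKM + 1) the values were larger, -0.73 at T1 (limma adjusted p = 0.018), -0.90 at T2 (limma adjusted p = 0.0042) and -0.82 at T3 (limma adjusted p = 0.13). Cstf2t, which encodes a second protein with the same kind of RNA binding domain, had 116, 117 and 106 CPM at T0, 137, 137 and 135 CPM at T1, 126, 134, 127 and 137 CPM at T2, and 131 and 129 CPM at T3. Every differentiating library was above T0, but the log2 fold changes of 0.26 at T1 (edgeR adjusted p = 0.079), 0.23 at T2 (edgeR adjusted p = 0.074) and 0.21 at T3 (edgeR adjusted p = 0.38) did not pass. At T3 its FPKM gave -0.015, so the sign there depends on the unit. Cstf1 was 58.1 to 80.0 CPM at T0 and 40.5 to 48.0 CPM at T2, a log2 fold change of -0.54 (edgeR adjusted p = 0.014), and Cstf3, the subunit that bridges the complex, was 71.0 to 97.1 CPM and 62.0 to 72.3 CPM, with a log2 fold change of -0.30 (edgeR adjusted p = 0.086).

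The 3 CFI subunits did not move alike. Cpsf6, a large subunit, had 218, 209 and 245 CPM at T0, 212, 241 and 196 CPM at T1, 219, 233, 203 and 172 CPM at T2, and 222 and 190 CPM at T3. The groups overlapped throughout, and the log2 fold change at T2 was -0.10 with an interval from -0.40 to 0.20. Cpsf7, the alternative large subunit, had 114, 106 and 120 CPM at T0, 103, 105 and 97.2 CPM at T1, 105, 108, 102 and 97.4 CPM at T2, and 105 and 99.5 CPM at T3. Its values lay at or just under the T0 range, with a log2 fold change of -0.12 at T2 and an interval from -0.34 to 0.10. Another place on chr19 matches 39.6% of its transcript at 97.1% identity.

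Nudt21, the small subunit that binds UGUA, had 8.4, 7.95 and 10.4 CPM at T0, 5.09, 6.58 and 6.22 CPM at T1, 6.69, 5.83, 6.28 and 5.28 CPM at T2, and 5.44 and 5.7 CPM at T3. All differentiating libraries were below T0. Against T0 the log2 change came to -0.58 at T1 (edgeR adjusted p = 0.07), -0.55 ± 0.18 (SE) at T2 (edgeR adjusted p = 0.039) and -0.66 at T3 (edgeR adjusted p = 0.2), and the T2 call was lost whichever T0 or T2 library was left out, with edgeR adjusted p from 0.051 (without T0 replicate 3, log2 fold change -0.43) to 0.098. These values rest on 53 to 147 counts. They cover an unknown part of the gene's mRNA, because a second place at chr3:20948371-20949450 matches 97.2% of the Nudt21 transcript at 99.8% identity and reads that align to more than 1 place were not counted. Alignments that were not unique made up 34.0% to 39.0% of all entries at T0 and 26.0% to 33.3% in the other libraries, and their part in the Nudt21 result was not tested.

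CFII had no member that passed. Pcf11, which binds the tail of RNA polymerase II, was 80.6 to 86.6 CPM at T0, 89.9 to 101 CPM at T1 and 92.6 to 119 CPM at T2, with a log2 fold change of 0.30 at T2 (edgeR adjusted p = 0.063). Clp1, an RNA kinase, was 19.6 to 25.3 CPM at T0 and 16.5 to 18.7 CPM at T1 (log2 fold change -0.29, edgeR adjusted p = 0.2), with a log2 fold change of -0.38 at T2 (edgeR adjusted p = 0.068), and its T3 libraries lay at 12.5 and 23.2 CPM.

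Of the 8 associated factors, Cpsf3l fell at T1 and T2 and Ppp1ca at T2. Cpsf3l, the endonuclease of the integrator complex, had 67.7, 67.0 and 113 CPM at T0, 51.9, 52.2 and 47.4 CPM at T1, 54.2, 51.3, 50.9 and 52.6 CPM at T2, and 51.8 and 63.6 CPM at T3. All differentiating libraries were below T0, where replicate 3 was 1.69 times the mean of the other libraries. The log2 fold change was -0.72 ± 0.22 (SE) at T1 (edgeR adjusted p = 0.047) and -0.65 ± 0.19 (SE) at T2 (edgeR adjusted p = 0.024), and without T0 replicate 3 these fell to -0.42 (edgeR adjusted p = 0.0037) and -0.35 (edgeR adjusted p = 0.0041). Exons of Pusl1 cover 22.7% of its exonic bases, and exons of Rad9 cover 15.5% of those of Ppp1ca. Ppp1ca, a catalytic subunit of protein phosphatase 1, had 248, 253 and 396 CPM at T0, 207, 192 and 223 CPM at T1, 212, 191, 219 and 207 CPM at T2, and 196 and 244 CPM at T3. The T3 library of 244 CPM was just under the lowest T0 library, and the log2 fold change at T2 was -0.52 ± 0.17 (SE, edgeR adjusted p = 0.041), or -0.26 (edgeR adjusted p = 0.024) without T0 replicate 3. Ppp1cb, another catalytic subunit of that phosphatase, had 294, 315 and 295 CPM at T0, 292, 309 and 307 CPM at T1, 317, 295, 317 and 310 CPM at T2, and 317 CPM in both T3 libraries. Its T1 and T2 libraries overlapped T0, and its log2 fold change at T2 was 0.06 with an interval from -0.16 to 0.27.

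The remaining 5 associated factors did not pass at any time point in the main fits. Xrn2, the exonuclease that degrades the downstream RNA after the cut, had a log2 fold change of -0.27 at T2 (edgeR adjusted p = 0.056). The cap-binding subunits Ncbp1 and Ncbp2 had values of -0.32 and -0.03 at T2. Rbbp6, a partner of the core complex, was 149 to 158 CPM at T0 and 163 to 188 CPM at T1, a log2 fold change of 0.19 (edgeR adjusted p = 0.2). Every limma fit on FPKM called Rbbp6 higher at T1 and at T2, so its result depends on the unit. It was called in 4 of 16 alternatives at T1 and 3 of 17 at T2, with log2 fold changes up to 0.598 and 0.457. Ssu72, a phosphatase of the RNA polymerase II tail, was 58.9 to 75.5 CPM at T0 and 66.5 to 88.0 CPM at T1, a log2 fold change of 0.25 (edgeR adjusted p = 0.26).

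A ratio between related members within a library does not depend on the scaling between libraries. Such ratios were compared over the 4 time points for 6 pairs by an exact permutation test over the 277200 ways to arrange the libraries, adjusted over the 6 pairs. Papolg counts over Papola counts were 0.155, 0.157 and 0.0767 at T0, 0.278, 0.263 and 0.26 at T1, 0.267, 0.263, 0.296 and 0.282 at T2, and 0.256 and 0.207 at T3 (exact permutation p = 0.00015, adjusted p = 0.00091). Every differentiating library was above T0, and without T0 replicate 3, the lowest, the adjusted exact permutation p was 0.0035. It was 0.052 without T3 replicate 4, where the call was lost, and 0.04 without T3 replicate 1. In FPKM, Papolg was 7.17% ± 2.46 (SD, n = 3) of the sum of both genes at T0, 12.9% ± 0.379 (SD, n = 3) at T1, 15.0% ± 1.91 (SD, n = 4) at T2 and 12.8% ± 0.495 (SD, n = 2) at T3.

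Cstf2t counts over Cstf2 counts were 0.532, 0.527 and 0.439 at T0, 0.764, 0.759 and 0.833 at T1, 0.678, 0.718, 0.695 and 0.822 at T2, and 0.647 and 0.665 at T3 (exact permutation p = 0.00084, adjusted p = 0.0025). Here too the T0 libraries did not overlap the others. In FPKM, Cstf2t made up 24.0% ± 1.06 (SD, n = 3) of the sum of both genes at T0, 38.4% ± 2.97 (SD, n = 3) at T1, 38.8% ± 3.48 (SD, n = 4) at T2 and 35.8% ± 4.6 (SD, n = 2) at T3, so Cstf2 stayed the more abundant mRNA per length.

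Cpsf6 counts over Nudt21 counts were 26.0, 26.3 and 23.6 at T0, 41.7, 36.6 and 31.5 at T1, 32.7, 40.0, 32.3 and 32.5 at T2, and 40.8 and 33.2 at T3 (exact permutation p = 0.013, adjusted p = 0.025). The adjusted exact permutation p was 0.056, 0.053 and 0.13 without T0 replicates 1, 2 and 3, so the call was lost with any of them left out. Ppp1cb counts over Ppp1ca counts were 1.18, 1.24 and 0.745 at T0, 1.42, 1.61 and 1.37 at T1, 1.5, 1.55, 1.45 and 1.49 at T2, and 1.62 and 1.3 at T3 (exact permutation p = 0.032, adjusted p = 0.049). This last call was lost under every alternative that was run, with adjusted p from 0.053 to 0.14. The ratio of the large CFI subunits, Cpsf6 over Cpsf7, was 1.9 to 2.04 at T0 and 1.77 to 2.3 in the other libraries (adjusted exact permutation p = 0.72). The ratio of Pabpc4 to Pabpc1 was 0.0291 to 0.0434 at T0 and 0.0317 to 0.0453 in the others (adjusted exact permutation p = 0.82).

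**Figure D5:**
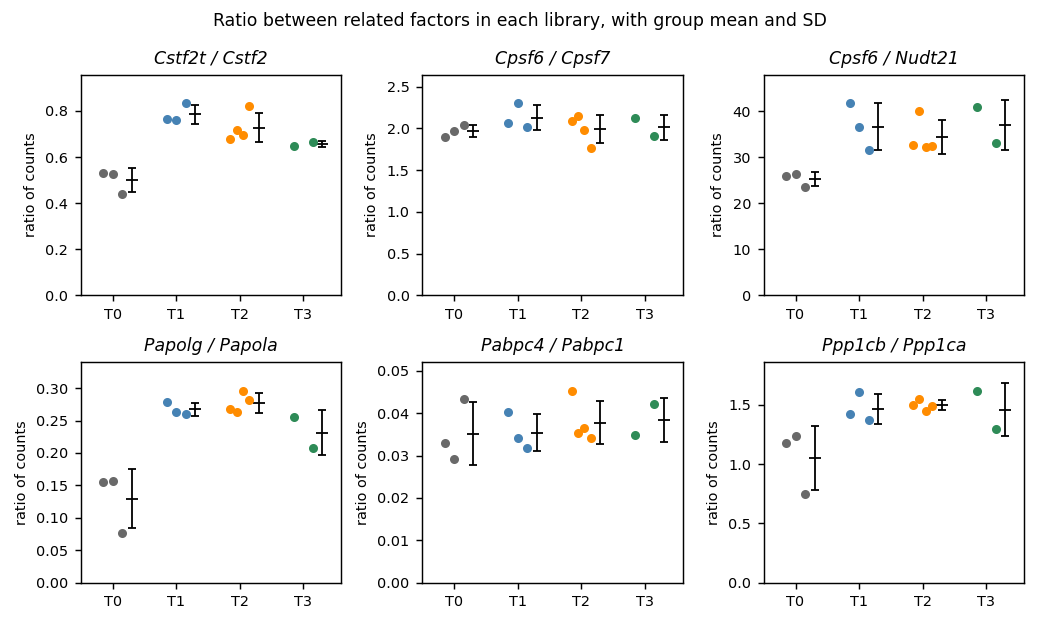
Ratio of counts between related factors in each library by time point, for the 6 pairs tested, with the group mean and SD in black and every axis starting at 0. The T0 points lie below all others for Cstf2t over Cstf2, Papolg over Papola, Cpsf6 over Nudt21 and Ppp1cb over Ppp1ca, and among the others for Cpsf6 over Cpsf7 and Pabpc4 over Pabpc1.

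No member passed the test between differentiating time points. From T1 to T2, 0 of 31 passed, where 0.63% of 12382 genes did, and none had an unadjusted edgeR p under 0.05, as 11.7% of all genes did. DESeq2 also called 0, beside 2.13% of all genes. The log2 fold changes ran from -0.23 for Pabpc1 to 0.21 for Papolb, and for 30 of 31 members the 95% interval lay within 0.5 of 0. Only Cpsf2 had all T2 libraries below all T1 libraries (5.85% of all genes) and 0 members had them above (6.4%). Same-numbered libraries of T1 and T2 had correlations of 0.166 to 0.341, but T1 replicate 3 and T2 replicate 4 had 0.37. The numbers are thus not shown to pair libraries. With the number as a block the count stayed 0, beside 1.99% of all genes.

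From T2 to T3, 0 of 31 passed, where 1.19% of 12599 genes did. At an unadjusted edgeR p under 0.05 there were 0 members and 17.0% of all genes, and DESeq2 called 0 members, beside 5.78% of all genes. The log2 fold changes ran from -0.13 for Papolg to 0.32 for Pabpc4, and the interval lay within 0.5 of 0 for 25 of 31. Both T3 libraries were above all T2 libraries for 4 members, Cpsf1, Cpsf2, Cstf2 and Ncbp1 (13.6% of all genes), and below them for 0 (12.1%). Without T3 replicate 1, which leaves 1 library at T3, the members' median log2 fold change was 0.093, beside 0.054 with both libraries. Over all 4 time points together, 12 of 31 members (38.7%) passed, beside 41.8% of 12952 genes, and all 12 were among the 15 called at T2.

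Genes of neighboring pathways were read in the same fits, in which 16.8% of all genes fell and 15.1% rose at T1, 21.8% fell and 21.4% rose at T2, and 4.72% passed at T3. The Cpeb genes, whose proteins control polyadenylation in the cytoplasm, all rose, 4 of 4 at T1 and 4 of 4 at T2, and 0 of 4 passed at T3, with median log2 fold changes of 1.22, 1.36 and 1.22. Cpeb1 went from 2.32 CPM ± 1.38 (SD, n = 3) at T0 to 13.9 CPM ± 1.38 (SD, n = 4) at T2, and Cpeb3 from 4.62 CPM ± 2.2 (SD, n = 3) to 15.7 CPM ± 1.77 (SD, n = 4). Of 11 integrator subunits 4 fell at T1, 5 at T2 and 1 at T3, with Ints4 at 335 CPM ± 11.6 (SD, n = 3) at T0 and 163 CPM ± 8.32 (SD, n = 4) at T2. Of 6 factors of histone mRNA 3′ processing, which uses Cpsf3 but adds no tail, 3 fell at T1, 4 at T2 and 1 at T3. Slbp, the histone stem-loop binding protein, had a log2 fold change of -1.24 at T2 (edgeR adjusted p = 0.00039), and Eri1, a nuclease that acts on that stem-loop, of -1.31 (edgeR adjusted p = 0.00014).

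Of 17 deadenylation genes none rose, while 4 (23.5%) fell at T1, 5 (29.4%) fell at T2 and 0 at T3. Cnot1, the scaffold of the CCR4-NOT deadenylase, had a log2 fold change of -0.68 at T2 (edgeR adjusted p = 0.0035). Of 13 genes of termination and of the polymerase tail, 1 fell at T2, Cdc73, and 0 passed at T1 and T3. Of 3 U1 snRNP proteins, which guard against early cleavage, 0 passed. Of 4 Elavl genes, which the study examined on these samples, 1 fell at T1 (Elavl4), 1 rose at T2 (Elavl3) and 0 passed at T3. Elavl3 had log2 fold changes of 2.2, 2.8 and 3.3 at T1, T2 and T3 (edgeR adjusted p = 0.052, 0.0067 and 0.11). Those of Elavl4 were -1.4, -0.94 and -1.03 (edgeR adjusted p = 0.043, 0.068 and 0.27). In its own DESeq2 comparisons the study reported Elavl3 higher at T1, T2 and T3, and Elavl4 lower at T1 and T2.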

How the data were processed

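The authors extracted total RNA with Trizol, made TruSeq libraries, labelled as polyA RNA, sequenced them on a HiScanSQ and aligned the reads to mm9. The submitters' processing notes name CASAVA 1.8, TopHat2 2.0.6, Bowtie 0.12.7.0, HTSeq 0.6.0 and DESeq2 1.0.0, with no role given, and the strand setting is not given in the sources used here. They deposited raw counts per gene for each of the 12 libraries (22609 genes and 5 entries that name no gene, left out: reads on no gene were 13.3% to 24.1% of unique reads). They also deposited FPKM per gene, and the tool behind those FPKM values is not given in the sources used here. Columns were matched to samples by name. Alignments were not used, so poly(A) site use was not analysed here.

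Counts were scaled by TMM (factors 0.932 to 1.04), filtered with filterByExpr and tested with the quasi-likelihood test of edgeR 4.0.16 in R 4.3.3, with the libraries of the 2 groups of each comparison only. P-values were adjusted by Benjamini-Hochberg over all genes tested, with a threshold of 0.05. CPM are TMM-scaled. The 6 ratios of raw counts were compared with an exact permutation F test (Python 3.11.15). Alternatives were DESeq2 1.42.0, limma 3.58.1 on log2(FPKM + 1) and log2(FPKM + 0.1), other filters and size factors, a replicate block and leaving out each library. The tests were checked on simulated counts.

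Copies were found by aligning each member's longest coding transcript to NCBIM37 (GENCODE vM1) with minimap2 2.31. Replicate numbers were considered as possible pairs where every same-numbered pair's deviations from the group means correlated above 0.1. This held for T1 and T2, although a differently numbered pair of these groups reached 0.37. The main test of T2 against T1 was not paired, and the replicate number was used as a block in an alternative only. T3 and T0 share 1 number, with a correlation of 0.404, and were not taken as paired. Values in every library are given for members called in at least 2 of 5 comparisons, for the 3 largest changes in each comparison with T0, for CFI and for both members of a ratio that passed. From the other lists, genes among the 3 largest called changes could be named. The members and lists were chosen with earlier results of these data known.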

Additional observations from a re-analysis of the deposited data

Results flagged for a closer look

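Among the 31 members, the highest or lowest of the 4 T2 libraries was set apart from the rest in 1 case. Cstf2 was at 167 CPM in T2 replicate 4 and at 183 to 186 CPM in the other T2 libraries, a gap of 0.83 of the group's range, which is past Dixon's 95% limit for 4 samples. Chance alone sets apart about 1 in 20 such groups, and only T2 had enough libraries to be examined. Leaving out each T2 library in turn gave the counts of called members stated above.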

How the results depend on the processing

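At T1, 7 members were called, beside 31.9% of all genes. The count was 15 in a fit of all 12 libraries (42.5%) and 4 with a replicate block (27.3%). It was 4 on log2(FPKM + 1) (20.1%) and 2 on log2(FPKM + 1) with no filter (10.9%). It was 19 with libraries numbered 1 and 2 only (59.8%). When a library was left out the count was 0 to 15, and the share of all genes was lowest without T1 replicate 2 (14.0%). The count of 15 came without T0 replicate 3, where the share of all genes also rose, as stated above. In each of these fits the share of all genes called moved from 31.9% in the same direction. At T2, where 15 were called (43.3%), the count was 2 with a replicate block (Pabpc1 and Papolg, beside 25.0%). It was 8 on FPKM with no filter (18.9%) and 7 to 16 when a library was left out (32.6% to 52.1%). At T3 the count of 0 (4.72%) became 1 with DESeq2 (15.2%) and 7 in the fit of all libraries (29.8%). Over the 4 time points the count of 12 (41.8%) was 7 on FPKM with no filter (17.8%). It was 9 to 14 when a library was left out (35.7% to 47.0%). Of 6 ratios, 4 passed, 2 did with a replicate block and 2 to 3 when a library was left out. Leaving out a library kept 0 calls from T1 to T2 and at T3, and gave 0 to 1 from T2 to T3. Between T0 and the other groups same-numbered libraries share only a number, and for T3 against T0 no block could be fitted because they share 1 number.

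Over all members and alternatives of the comparisons with T0, 1420 values were computed and 54 changed sign, 0 of them for a member called in the main or the alternative fit. Cpsf6 changed to 0.086 at T1 and 0.095 at T2 with libraries numbered 1 and 2 only, and at T1 to 0.016 without T0 replicate 3 and 0.012 without T1 replicate 3 (range over libraries left out -0.135 to 0.016). Cstf2t at T3 changed to -0.015, -0.016 and -0.015 in the FPKM fits, and Fip1l1 at T3 to -0.037 without T3 replicate 1 (0.97 without T3 replicate 4). The causes were not tested. Low counts limit Papolb and Nudt21 most, and 2 libraries limit every T3 value. The counts of Nudt21 also leave out reads that fit its second place in the genome.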
